A study of Homo sapiens with 18 samples.

Results

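The genes described here encode the enzymes, transporters and regulators of glucose use in HK-2 cells: the uptake of glucose, glycolysis down to lactate, the PFKFB and TIGAR enzymes that set its rate, the entry into glycogen, and the pentose phosphate pathway. Of 31 listed genes, 29 had a probe set annotated with exactly 1 gene symbol, and 28 passed the level filter, a highest group mean of at least 4 on the log2 scale (no label states the log base, and 2 was assumed from the range of the values), among the 10717 genes that passed it in all. Each gene was read from its brightest probe set. ALDOC was below the filter, with a mean of 2.23 over the 18 arrays. SLC16A1 and SLC16A3, the lactate transporters of the list, were not analysed here because no probe set carried their symbol alone.

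HK-2 is a single line of human kidney proximal tubule cells, immortalised with papillomavirus genes. The cells were kept in DMEM/Ham's F12 with glucose at 5 mM, insulin at 5 µg/ml and EGF at 10 ng/ml, seeded 24 h before exposure and exposed at about 90% confluency. They received CsA, the usual abbreviation of the immunosuppressant cyclosporin A, a calcineurin inhibitor known for its kidney toxicity, or the vehicle as control, and were collected after 12, 24 or 48 h, with 3 arrays in each of the 6 groups. The labels give no dose. They call the 3 arrays of a group biological replicates without saying what was repeated, so the tests measure the spread between these arrays, whatever it holds. All groups are the same line in the same medium, and the set is part of a study of compounds tested for signatures of kidney toxicity in this line.

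As background, glycolysis splits glucose into a pair of triose phosphates and carries them to pyruvate, with lactate dehydrogenase turning pyruvate into lactate. Phosphofructokinase is the main point of control: the PFKFB enzymes make a fructose bisphosphate that activates it, and TIGAR removes that activator and so favours the pentose phosphate pathway, which supplies NADPH and ribose. Proximal tubule in the kidney burns mostly fatty acids and makes glucose, whereas cultured tubule lines depend more on glycolysis.

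The arrays were alike in scale, with medians between 2.86 and 2.92. All 6 epithelial markers passed the filter, namely KRT8, KRT18, KRT19, EPCAM, CDH1 and PAX8, but 0 of 8 proximal tubule markers did (LRP2, CUBN, SLC34A1, AQP1, ANPEP, GGT1, SLC5A2 and SLC22A6 had means between 2.14 and 3.03). By these lists the cells carried epithelial transcripts, and the 8 tubule genes stayed at the low end of the scale in every group. None of the 4 endothelial markers and none of the 3 leukocyte markers with a probe set passed the filter, while 4 of 6 fibroblast genes did: COL1A1, COL3A1, DCN and LUM. Of the muscle and liver isoforms of the pathway, ENO3 passed and PGAM2, PKLR and PYGM did not. For 18 of 18 arrays the array of another group with the closest deviations from its group mean had the same replicate number. Correlations of these deviations between arrays of the same number were between 0.28 and 0.94 over all pairs of groups. They were between 0.55 and 0.94 for CsA and control of the same time. Arrays with different numbers reached 0.73, so the ranges overlap. Values from a second fit, blocked on the replicate number, are given wherever they changed a call.

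After 48 h most glycolytic genes had lower means with CsA than in control, PFKFB3 by the most; 5 genes passed the test in the blocked fit and none without the block. In the limma fit over all 18 arrays, 0 of 28 genes passed at 48 h, beside 0.439% of all genes tested. The threshold was a Benjamini-Hochberg adjusted p of 0.05. An unadjusted p under 0.05 was found for 4 of the 28 and for 1719 of all 10717 genes. The share of the 28 was thus not above that of all genes. With the replicate block, 4 fell (PFKFB3, PGAM1, LDHA and TPI1), which is 14.3% of the genes described beside 5.96% of all genes, and 1 rose (TIGAR), 3.57% beside 4.8%. In that blocked limma fit an unadjusted p under 0.05 was found for 7 of the 28 and for 3014 of all 10717 genes. By this count too the share of the 28 was not above that of all genes. Within the same replicate number, 12 of 28 were lower in all 3 pairs beside 26.2% of all genes, and 3 were higher in all 3 pairs beside 25.7%. The groups did not overlap for 4 genes that were lower, PFKP, PGAM1, LDHA and PFKFB3, beside 6.77% of all genes, and for 0 that were higher, beside 8.25%. The median difference over the 28 genes was -0.13 on the log2 scale, with 21 below 0, and that over all genes was 0.00091.

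**Figure D1:**
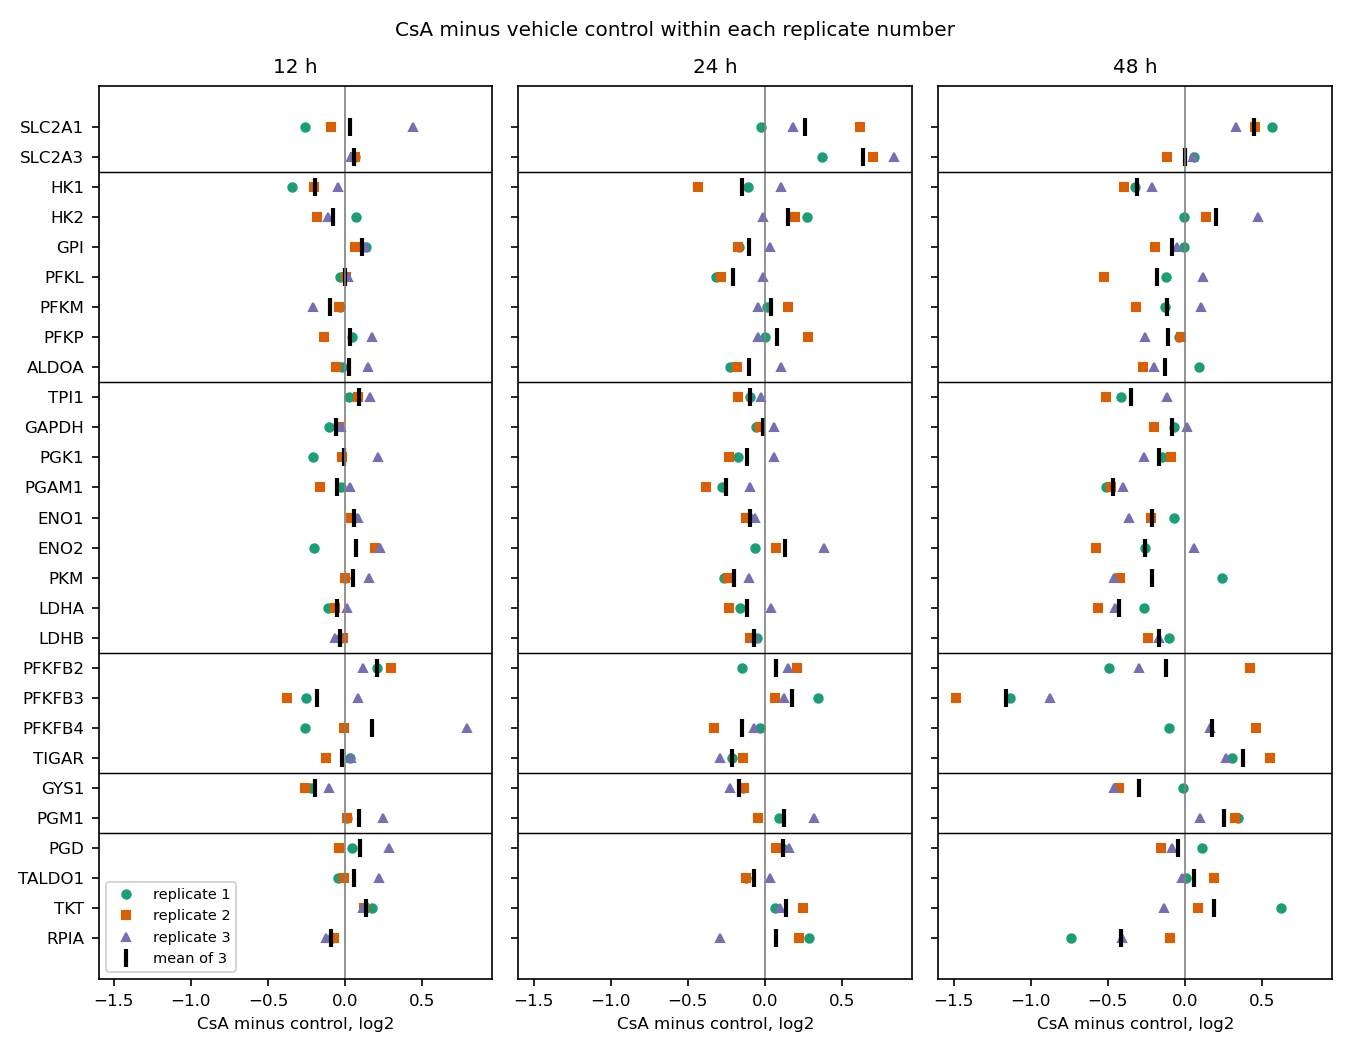
CsA minus control on the log2 scale for each of the 28 genes (rows, grouped by role) at 12, 24 and 48 h, with 1 point per replicate number and a bar at the mean of the 3. At 48 h all 9 genes of lower glycolysis have a mean below 0, PFKFB3 lies furthest below at -1.16, and TIGAR is above 0 in all 3 pairs.

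PFKFB3, the kinase form with the strongest bias towards making the activator of phosphofructokinase, had the largest difference. Its log2 level at 48 h was 9.10, 8.58 and 9.36 in control replicates 1 to 3 and 7.97, 7.10 and 8.49 with CsA. All 3 CsA arrays were below all 3 control arrays, and the lowest value of the 18 was that of CsA replicate 2. The difference of -1.16 (SE 0.28, n = 3 arrays a group) is 2.24-fold lower, with a limma adjusted p of 0.0688 without the block and 0.0156 with it. At 12 h the values were 8.59, 8.81 and 8.71 in control and 8.33, 8.43 and 8.79 with CsA, and at 24 h 8.50, 8.87 and 8.72 in control and 8.84, 8.93 and 8.84 with CsA; both pairs of groups overlapped, with adjusted p of 1 and 0.999 in limma. PFKFB3 is read by 1 probe set only.

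PGAM1, the phosphoglycerate mutase of non-muscle tissue, stood at 13.02, 12.72 and 12.91 in control at 48 h and at 12.51, 12.24 and 12.51 with CsA, with no overlap. The difference was -0.47 (SE 0.16), 1.38-fold lower, with a limma adjusted p of 0.171 without and 0.0182 with the block. PGAM1 was also the 1 gene of the 28 that fell in the average of the 3 times with the block, with a difference of -0.26 (SE 0.06, adjusted p 0.0335; without the block 0.271). That call was lost when any replicate number, or any of 13 of the 18 arrays, was left out. In that average 0 of 28 passed without the block beside 0.084% of all genes, and with it 1 fell and 0 rose beside 2.5% and 2.11%.

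LDHA, the subunit of lactate dehydrogenase that favours lactate formation, was at 14.19, 13.94 and 13.98 in control and at 13.93, 13.38 and 13.53 with CsA at 48 h. The highest CsA array lay just under the lowest control array. The difference was -0.43 (SE 0.13), 1.34-fold lower, with limma adjusted p of 0.126 without and 0.0373 with the block. TPI1, the isomerase that joins both triose phosphates into 1 stream, was at 12.80, 12.46 and 12.74 in control and 12.38, 11.95 and 12.62 with CsA. Its groups overlapped, since CsA replicate 3 exceeded control replicate 2, but each CsA array was below the control of its own number. The difference of -0.35 (SE 0.15) had limma adjusted p of 0.28 without and 0.0485 with the block. Its 3 probe sets did not agree: the others gave -0.32 and, on the dimmest, 0.08, and the mean of all 3 had an adjusted p of 0.145 with the block.

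TIGAR, the phosphatase that removes the activator of phosphofructokinase, went the other way. It was at 8.61, 8.61 and 9.50 in control at 48 h and at 8.91, 9.16 and 9.77 with CsA. The groups overlap, with replicate 3 above the others in both, and each CsA array exceeded the control of its number by 0.31, 0.55 and 0.27. The difference was 0.37 (SE 0.38 without and 0.09 with the block), 1.3-fold higher, with limma adjusted p of 0.718 and 0.0206.

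The calls at 48 h depended on single arrays. With the block, leaving out replicate 1, 2 or 3 in all groups left 0 of the 28 genes called, as did leaving out CsA replicate 2 or control replicate 1 of 48 h. Leaving out CsA replicate 1 gave 5, CsA replicate 3 gave 3, control replicate 2 gave 4 and control replicate 3 gave 3. The share of all genes called in these fits is not given here, so these genes cannot be compared with others in this respect. Without the block, PFKFB3 passed without CsA replicate 1 (adjusted p 0.0418 in limma), CsA replicate 3 (0.021) or control replicate 2 (0.0315), and LDHA passed without CsA replicate 1 (0.0135). The differences themselves kept their sign in each of these fits. Beside them LUM, a fibroblast gene, had a difference of -1.16 at 48 h with a limma adjusted p of 0.176 without and 0.0539 with the block, and CDH1, an epithelial gene, one of 0.86 with 0.905 and 0.0126. CDH1 and LUM had the largest differences of their lists. The other 5 epithelial genes did not pass in either fit and went both ways, with KRT8 at 0.54, KRT18 at 0.47, EPCAM at 0.16, KRT19 at -0.11 and PAX8 at -0.17, and the other 3 fibroblast genes past the filter were at -0.50 (COL1A1), -0.08 (COL3A1) and -0.50 (DCN). The mean level of the 6 fibroblast genes was 6.08 in control and 5.66 with CsA at 48 h, against 6.42 to 6.50 in the 24 h groups, and that of the 6 epithelial genes was 10.81 in control and 11.10 with CsA at 48 h. Their part in these results was not tested. In bulk RNA, fewer cells of a type and less RNA per cell cannot be told apart.

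**Figure D2:**
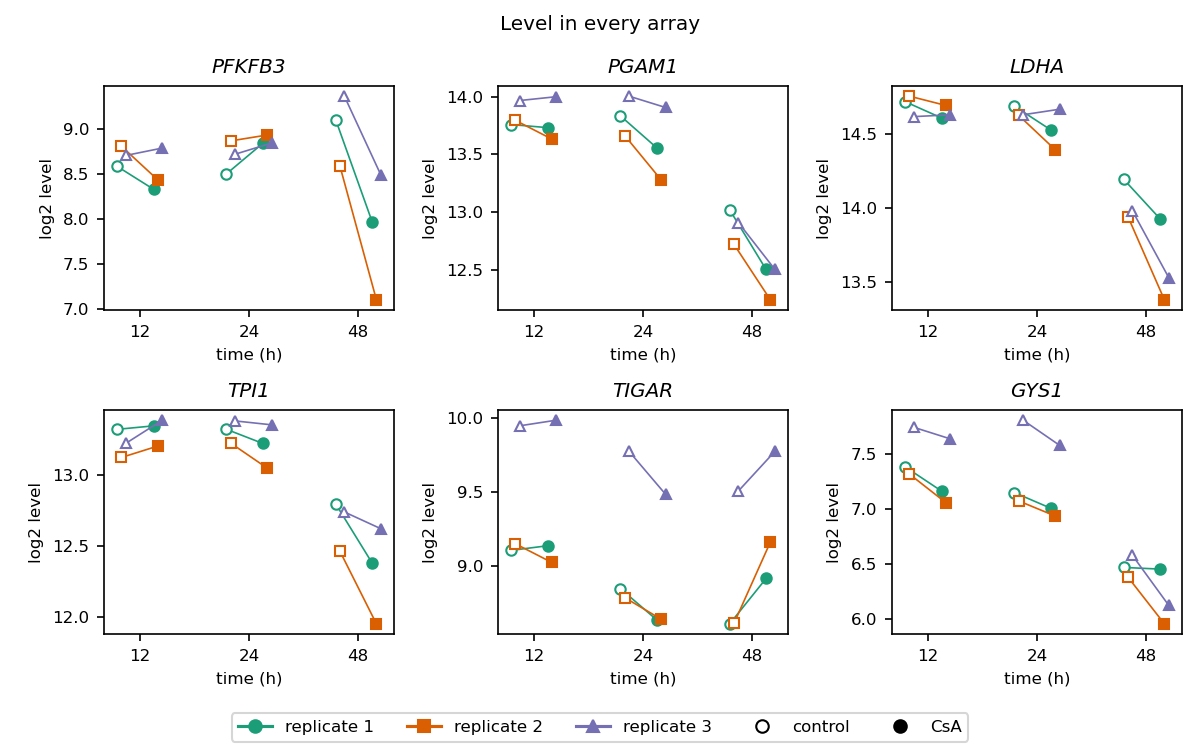
Log2 level in every array (open symbols control, filled symbols CsA) of PFKFB3, PGAM1, LDHA, TPI1, TIGAR and GYS1 at 12, 24 and 48 h, with a line joining the arrays of 1 replicate number; each panel has its own axis. At 48 h every line falls from control to CsA for PFKFB3, PGAM1, LDHA and TPI1, and every line rises for TIGAR, whose replicate 3 lies above replicates 1 and 2 throughout.

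The start regions of the genes with 1 probe set among these 5 are shown because they share a direction or oppose each other at 48 h, and because E-boxes and hypoxia response elements are well-known control elements of glycolytic genes. RefSeq windows (GRCh38.p14) matched 28 of the 31 genes. The 250 bases before an annotated start are printed, 5′ to 3′ on the plus strand, with capitals marking ACGTG on either strand. ACGTG is a form of the core of the hypoxia response element and is contained in the E-box CACGTG. Other forms of that core were not searched.
LDHA, chr11:18394313-18394562: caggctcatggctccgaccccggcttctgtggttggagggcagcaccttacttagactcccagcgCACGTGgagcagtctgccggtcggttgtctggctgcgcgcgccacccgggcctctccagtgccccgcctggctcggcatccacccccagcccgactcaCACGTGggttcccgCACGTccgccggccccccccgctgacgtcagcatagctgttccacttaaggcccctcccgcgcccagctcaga
PFKFB3, chr10:6202682-6202931: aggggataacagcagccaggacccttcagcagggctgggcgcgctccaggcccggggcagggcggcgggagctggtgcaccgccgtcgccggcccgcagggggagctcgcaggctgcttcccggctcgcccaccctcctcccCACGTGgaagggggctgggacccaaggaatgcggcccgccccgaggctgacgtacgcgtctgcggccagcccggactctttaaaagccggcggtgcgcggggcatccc
TIGAR, chr12:4320963-4321212: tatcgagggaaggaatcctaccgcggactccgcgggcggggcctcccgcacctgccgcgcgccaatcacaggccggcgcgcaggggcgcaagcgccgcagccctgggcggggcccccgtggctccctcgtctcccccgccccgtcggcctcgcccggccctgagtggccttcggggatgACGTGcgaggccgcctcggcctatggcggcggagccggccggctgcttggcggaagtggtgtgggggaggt
PGAM1, chr10:97427568-97427817: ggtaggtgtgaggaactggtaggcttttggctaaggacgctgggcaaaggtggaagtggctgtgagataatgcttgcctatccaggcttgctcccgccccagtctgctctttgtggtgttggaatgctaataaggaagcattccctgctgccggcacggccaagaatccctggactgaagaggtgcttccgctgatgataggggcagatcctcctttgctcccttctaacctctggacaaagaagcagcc
The LDHA window holds 3 marked runs, of which 2 read CACGTG. The PFKFB3 window holds 1, which reads CACGTG, the TIGAR window holds 1 ACGTG, and the PGAM1 window holds no match. LDHA and PFKFB3 have 2 annotated starts each, and the window with more matches is the one printed. Of the 26 genes tested that had a window, 14 (53.8%) held ACGTG in at least 1 of their windows beside 29.6% of the 8884 genes tested with a window, and 17 of their 49 windows (34.7%) held it beside 22.7% of the 13020 windows of all genes tested and 18.5% of all 35093 windows. CACGTG was in 5 of the 49 windows (10.2%) beside 8.57% and 6.34%. The shares by gene count a match in any window, and the genes described had more windows per gene than all genes tested. A match describes the letters of these windows and is not a measured site.

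Among the remaining genes at 48 h, all 9 of triose and lower glycolysis had a difference below 0, with a median of -0.22 and a range from -0.47 to -0.09. ENO1, the main enolase, was at 14.12, 13.98 and 14.27 in control and 14.05, 13.76 and 13.90 with CsA, a difference of -0.22 (SE 0.10, limma adjusted p 0.314). PGK1, which makes the first ATP of the pathway's second stage, was at 13.35, 13.20 and 13.63 in control and 13.20, 13.11 and 13.37 with CsA, a difference of -0.17. PKM, the pyruvate kinase of this kind of cell, was at 11.74, 12.0 and 12.60 in control and 11.98, 11.58 and 12.14 with CsA, with replicate 1 going up and the others down. LDHB had -0.17, ENO2 -0.26 and GAPDH -0.09. GAPDH ranged only between 15.32 and 15.61 over the 18 arrays, close to 15.98, the highest value of any probe set in the table.

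In the steps from glucose to aldolase, 6 of 7 genes had a difference below 0 at 48 h, with a median of -0.12, and none passed the test with or without the block. HK1, the common hexokinase, differed most of this group at both 12 and 48 h. It was at 10.52, 10.33 and 10.56 in control and 10.18, 10.13 and 10.52 with CsA at 12 h, and at 9.70, 9.57 and 10.57 in control and 9.38, 9.17 and 10.36 with CsA at 48 h. It was lower in all 3 pairs at both times, with differences of -0.20 and -0.31 (SE 0.30, limma adjusted p 1 and 0.698). PFKL, the liver form of phosphofructokinase, differed most at 24 h, with 8.64, 8.50 and 8.43 in control and 8.32, 8.22 and 8.42 with CsA, a difference of -0.21 (SE 0.12, limma adjusted p 0.999). HK2, the inducible hexokinase, was 0.20 above control at 48 h, and GPI, ALDOA, PFKM and PFKP were -0.09, -0.13, -0.12 and -0.11 from it. 

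The glucose transporters bring the substrate into the cell. SLC2A1 (GLUT1), the basal glucose transporter, was at 6.16, 6.92 and 7.73 in control at 48 h and 6.72, 7.37 and 8.07 with CsA, higher in each pair. The difference of 0.45 (SE 0.38) had a limma adjusted p of 0.65, and the control values alone spread over more than that difference. SLC2A3 (GLUT3), a transporter of high affinity, was at 8.63, 8.87 and 7.41 in control at 24 h and 9.0, 9.57 and 8.25 with CsA, a difference of 0.64 (SE 0.58, limma adjusted p 0.999), higher in each pair. At 12 h its values were 8.31, 8.16 and 6.75 in control and 8.38, 8.22 and 6.78 with CsA, and at 48 h 8.41, 9.02 and 9.76 in control and 8.48, 8.91 and 9.81 with CsA, with differences of 0.06 and -0.0023. The other 2 probe sets of SLC2A3 gave 0.50 and 0.49 at 12 h, 0.87 and 0.93 at 24 h, and 0.13 and 0.25 at 48 h, so the size at 12 h depends on the probe set.

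Of the regulators besides PFKFB3 and TIGAR, PFKFB2, the heart form, differed most at 12 h, with 6.01, 6.30 and 6.17 in control and 6.22, 6.60 and 6.29 with CsA, a difference of 0.21 (SE 0.29, limma adjusted p 1). PFKFB4 was near the filter, at 4.64, 3.53 and 4.0 in control and 4.54, 3.99 and 4.16 with CsA at 48 h, and is the only gene of the 28 with an array under 4. In the glycogen genes, GYS1, the glycogen synthase outside liver, had the largest difference at each time. It was at 7.39, 7.32 and 7.75 in control and 7.17, 7.06 and 7.64 with CsA at 12 h, at 7.15, 7.08 and 7.81 in control and 7.01, 6.94 and 7.58 with CsA at 24 h, and at 6.47, 6.38 and 6.58 in control and 6.45, 5.95 and 6.12 with CsA at 48 h. All 9 pairs were lower with CsA, with differences of -0.20, -0.17 and -0.30 (SE 0.23) and limma adjusted p of 1, 0.999 and 0.602. PGM1, which joins glycogen to glucose phosphate, was 0.25 above control at 48 h and higher in all 3 pairs.

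In the pentose phosphate pathway none of 4 genes passed the test at any time, with or without the block. TKT, a transketolase that returns pentoses to glycolysis, was at 12.33, 12.38 and 12.21 in control and 12.50, 12.50 and 12.33 with CsA at 12 h, and at 12.54, 12.43 and 12.49 in control and 12.60, 12.68 and 12.58 with CsA at 24 h. It was higher in all 3 pairs at both times, with differences of 0.14 and 0.14 (SE 0.15, limma adjusted p 1 and 0.999). RPIA, the ribose phosphate isomerase, was at 7.72, 7.13 and 7.61 in control and 6.98, 7.03 and 7.20 with CsA at 48 h, a difference of -0.42 (SE 0.32, limma adjusted p 0.601). PGD and TALDO1 were -0.04 and 0.06 from control at 48 h.

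At 12 and 24 h none of these genes passed the test. In the limma fit 0 of 28 genes passed at either time, beside 0% of all genes at both. An unadjusted p under 0.05 was found in that fit for 0 of the 28 at each time. Of all 10717 genes, 98 had one at 12 h and 406 at 24 h. With the block, 0 of 28 passed beside 0% of all genes at 12 h and 0.00933% at 24 h. An unadjusted limma p under 0.05 was then found for 0 of the 28 and 259 of all genes at 12 h. At 24 h it was found for 2 of the 28 and 1009 of all genes. At 12 h, 6 genes were lower in all 3 pairs beside 20.6% of all genes and 7 higher beside 18.9%. At 24 h, 9 were lower in all 3 pairs beside 23.3% and 4 higher beside 22%; 5 of the lower ones, TPI1, PGAM1, ENO1, PKM and LDHB, belong to lower glycolysis. The median of the 28 differences was 0.03 at 12 h and -0.07 at 24 h, beside -0.01 over all genes at both times.

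PFKFB3 and TIGAR, 7.14% of the 28, had opposite signs at 24 and 48 h in all 3 pairs, beside 6.96% of all genes. PFKFB3 was above control by 0.34, 0.07 and 0.12 at 24 h and below it by the differences -1.13, -1.48 and -0.87 at 48 h. TIGAR differed by -0.21, -0.15 and -0.29 at 24 h and by 0.31, 0.55 and 0.27 at 48 h. A limma test of whether the CsA effect differed between the 3 times called 0 of 28 genes beside 0.0373% of all genes, and with the block 0 beside 0.028%, with adjusted p for PFKFB3 of 1 and 0.346 and for TIGAR of 1 and 0.278.

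In the vehicle control arrays many of these genes changed with time. Between 12 and 48 h, 5 of the 9 lower glycolysis genes fell, while PFKFB2 and HK2 rose. A limma test over the 3 control times, with direction from 48 against 12 h, called 8 genes lower, GPI, ALDOA, TPI1, PGAM1, ENO1, PKM, LDHA and GYS1 (28.6% of the 28 beside 7.06% of all genes), and 2 higher, HK2 and PFKFB2 (7.14% beside 7.09%). With the block, 13 were lower, adding HK1, PGK1, PFKFB4, TIGAR and TALDO1 (46.4% beside 16.7%), and the same 2 were higher (7.14% beside 16.8%). The control groups at 48 and 12 h did not overlap for 11 genes that were lower, beside 18.3% of all genes, and for 3 that were higher, beside 16.5%. The CsA comparison at 48 h uses the same 48 h control arrays. Time after exposure, time in culture and cell density cannot be told apart in this design.

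**Figure D3:**
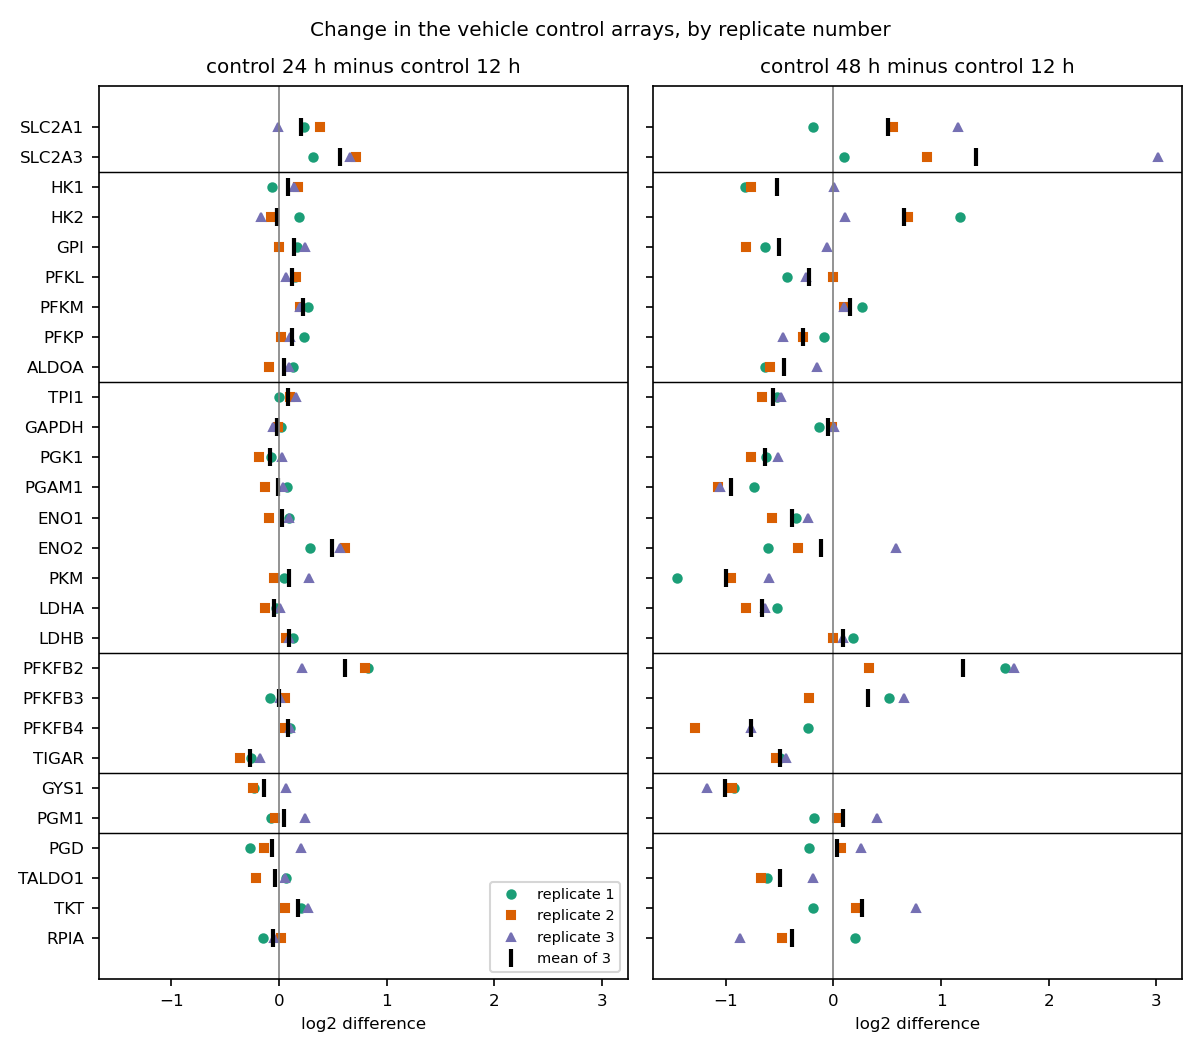
Change in the control arrays from 12 h to 24 h and from 12 h to 48 h on the log2 scale, with 1 point per replicate number and a bar at the mean of the 3, genes in rows grouped by role. Most genes of lower glycolysis lie near 0 at 24 h and well below it at 48 h, and SLC2A3 spreads from 0.10 to 3.02 at 48 h.

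PKM had the largest fall of lower glycolysis. Its log2 level in control was 13.19, 12.94 and 13.20 at 12 h, 13.24, 12.90 and 13.48 at 24 h and 11.74, 12.0 and 12.60 at 48 h, so the 3 arrays of 48 h lay below all 6 earlier ones. The change from 12 to 48 h was -1.0 (SE 0.24), 2-fold lower, and the limma adjusted p over the 3 times was 0.0125. A second PKM probe set, much dimmer, gave -0.08. PGAM1 went from 13.76, 13.79 and 13.97 at 12 h through 13.83, 13.66 and 14.0 at 24 h to 13.02, 12.72 and 12.91 at 48 h, a change of -0.95 (SE 0.16) with a limma adjusted p of 0.00206. LDHA went from 14.72, 14.75 and 14.62 at 12 h through 14.69, 14.62 and 14.63 at 24 h to 14.19, 13.94 and 13.98 at 48 h, a change of -0.66 (SE 0.13, limma adjusted p 0.00641). For all of PKM, PGAM1 and LDHA the fall lay between 24 and 48 h.

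TPI1 was at 13.32, 13.12 and 13.22 in control at 12 h, 13.32, 13.22 and 13.38 at 24 h and 12.80, 12.46 and 12.74 at 48 h. Its 3 probe sets gave -0.56, -0.60 and -0.31 from 12 to 48 h, and its limma adjusted p was 0.0201. ENO1 was at 14.46, 14.55 and 14.50 at 12 h, 14.56, 14.46 and 14.59 at 24 h and 14.12, 13.98 and 14.27 at 48 h, a change of -0.38 (limma adjusted p 0.021). PGK1 was at 13.97, 13.96 and 14.14 at 12 h, 13.89, 13.77 and 14.17 at 24 h and 13.35, 13.20 and 13.63 at 48 h, a change of -0.63 with limma adjusted p of 0.0638 without and 0.00108 with the block. All 6 probe sets of PGK1 were lower at 48 h, with changes between -0.21 and -1.02. GAPDH and LDHB differed by -0.05 and 0.09, and ENO2, the neuronal form of enolase, differed by -0.12 with replicate 3 going up and the others down. The lower glycolysis genes had a median change of 0.03 from 12 to 24 h and of -0.56 from 12 to 48 h, with 8 of 9 below 0, beside -0.01 over all genes in both.

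Upstream, GPI, the isomerase of the second step, was at 11.92, 11.89 and 11.45 in control at 12 h, 12.08, 11.88 and 11.70 at 24 h and 11.28, 11.07 and 11.39 at 48 h, a change of -0.50 from 12 to 48 h (SE 0.17, limma adjusted p 0.0428). ALDOA, the main aldolase, was at 13.76, 13.67 and 13.56 at 12 h, 13.90, 13.58 and 13.66 at 24 h and 13.13, 13.07 and 13.41 at 48 h, a change of -0.46 (SE 0.14, limma adjusted p 0.045). Both fell in replicates 1 and 2 by more than in replicate 3. HK1 was at 10.52, 10.33 and 10.56 at 12 h, 10.46, 10.51 and 10.71 at 24 h and 9.70, 9.57 and 10.57 at 48 h, where replicate 3 did not fall, with limma adjusted p of 0.327 without and 0.0321 with the block. HK2 went from 6.96, 7.31 and 7.74 at 12 h through 7.15, 7.23 and 7.57 at 24 h to 8.14, 8.0 and 7.85 at 48 h, a rise of 0.66 (SE 0.19, limma adjusted p 0.038). In the blocked fit HK1 was called lower and HK2 higher.

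Among the regulators, PFKFB2 went from 6.01, 6.30 and 6.17 at 12 h through 6.84, 7.11 and 6.39 at 24 h to 7.61, 6.64 and 7.85 at 48 h, a rise of 1.20 (SE 0.29), 2.3-fold, with a limma adjusted p of 0.0324. Its second probe set past the filter gave 0.34. PFKFB4, a form known to be induced by low oxygen, was at 4.87, 4.81 and 4.76 at 12 h, 4.98, 4.86 and 4.86 at 24 h and 4.64, 3.53 and 4.0 at 48 h, with limma adjusted p of 0.0676 without and 0.0224 with the block. TIGAR was at 9.10, 9.15 and 9.94 at 12 h, 8.85, 8.78 and 9.77 at 24 h and 8.61, 8.61 and 9.50 at 48 h. Its changes from 12 to 48 h were -0.50, -0.54 and -0.44 in replicates 1 to 3, with limma adjusted p of 0.709 without and 0.00245 with the block. With CsA its mean was 9.38 ± 0.53 (SD, n = 3) at 12 h and 9.28 ± 0.44 at 48 h. PFKFB3 in control differed by 0.32 (SE 0.28, limma adjusted p 0.683).

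GYS1 went from 7.39, 7.32 and 7.75 at 12 h through 7.15, 7.08 and 7.81 at 24 h to 6.47, 6.38 and 6.58 at 48 h, a change of -1.01 (SE 0.23), 2.01-fold lower, with a limma adjusted p of 0.0169. TALDO1, the transaldolase of the pentose phosphate pathway, was at 12.11, 12.19 and 12.38 at 12 h, 12.18, 11.98 and 12.43 at 24 h and 11.50, 11.52 and 12.19 at 48 h, with limma adjusted p of 0.268 without and 0.00591 with the block. TKT, PGD and RPIA differed by 0.26, 0.03 and -0.38, and none passed. SLC2A3 was higher at 48 h than at 12 h by 0.10, 0.87 and 3.02 in replicates 1 to 3, a mean of 1.33 (SE 0.58, limma adjusted p 0.287), which rests mostly on replicate 3. SLC2A1 differed by -0.19, 0.56 and 1.15 in the same order, with replicate 1 against the others.

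The calls in control over time changed with the arrays left out too. Leaving out replicate 1 in all groups left 0 of the 28 called without the block, leaving out replicate 2 left 2 and leaving out replicate 3 gave 14. Leaving out 1 control array at a time gave between 3 and 9 calls, with 3 without control 48 h replicate 2, and 6 each without replicate 1 or 2 of 12 h or replicate 1 or 3 of 48 h. PGAM1 and LDHA were called in all 9 of these fits, GYS1 in 8, and TPI1, ENO1 and PKM in 7. PFKFB2 was called in 4, and GPI, ALDOA and HK2 in 2. With the block, leaving out replicate 1 in all groups gave 7 calls, replicate 2 gave 9 and replicate 3 gave 15. Leaving out 1 control array gave 13 to 15. The share of all genes called in these fits is not given here either. LUM differed by -1.31 from 12 to 48 h in control, with a limma adjusted p of 0.0664 without and 0.0207 with the block, and its part in these changes was not tested. The other fibroblast genes past the filter differed by -0.55 (COL1A1), -0.02 (COL3A1) and -0.34 (DCN) and did not pass in either fit. None of the 6 epithelial genes passed without the block, and with it 3 did, in both directions: CDH1 was higher by 0.95 (limma adjusted p 0.962 without and 0.00147 with the block), EPCAM was higher by 0.34 (0.957 and 0.0491) and PAX8 differed by -0.26 (0.765 and 0.0379). KRT8, KRT18 and KRT19 differed by -0.28, 0.18 and 0.08. Their part in these changes was not tested either.

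Replicate 3 stood apart for some of these genes, as it did for genes at large. HK1, PGK1, PKM, TIGAR and TALDO1 were higher in replicate 3 than in replicates 1 and 2 in all 6 groups. These are 5 of 28 (17.9%) beside 11.7% of all genes. LDHB was lower in all 6, 1 of 28 (3.57%) beside 14.8%. TIGAR averaged 9.74 in replicate 3 and 8.88 in the others, a gap of 0.86 that was between 0.73 and 0.96 in each group. LDHB averaged 14.68 and 15.14. The gap of TIGAR between replicate numbers is larger than its difference between CsA and control at 48 h. The block takes such a gap as the same in every group. For SLC2A3 it was not: replicate 3 minus the mean of the others ran from -1.51 to 1.12 over the groups.

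**Figure D4:**
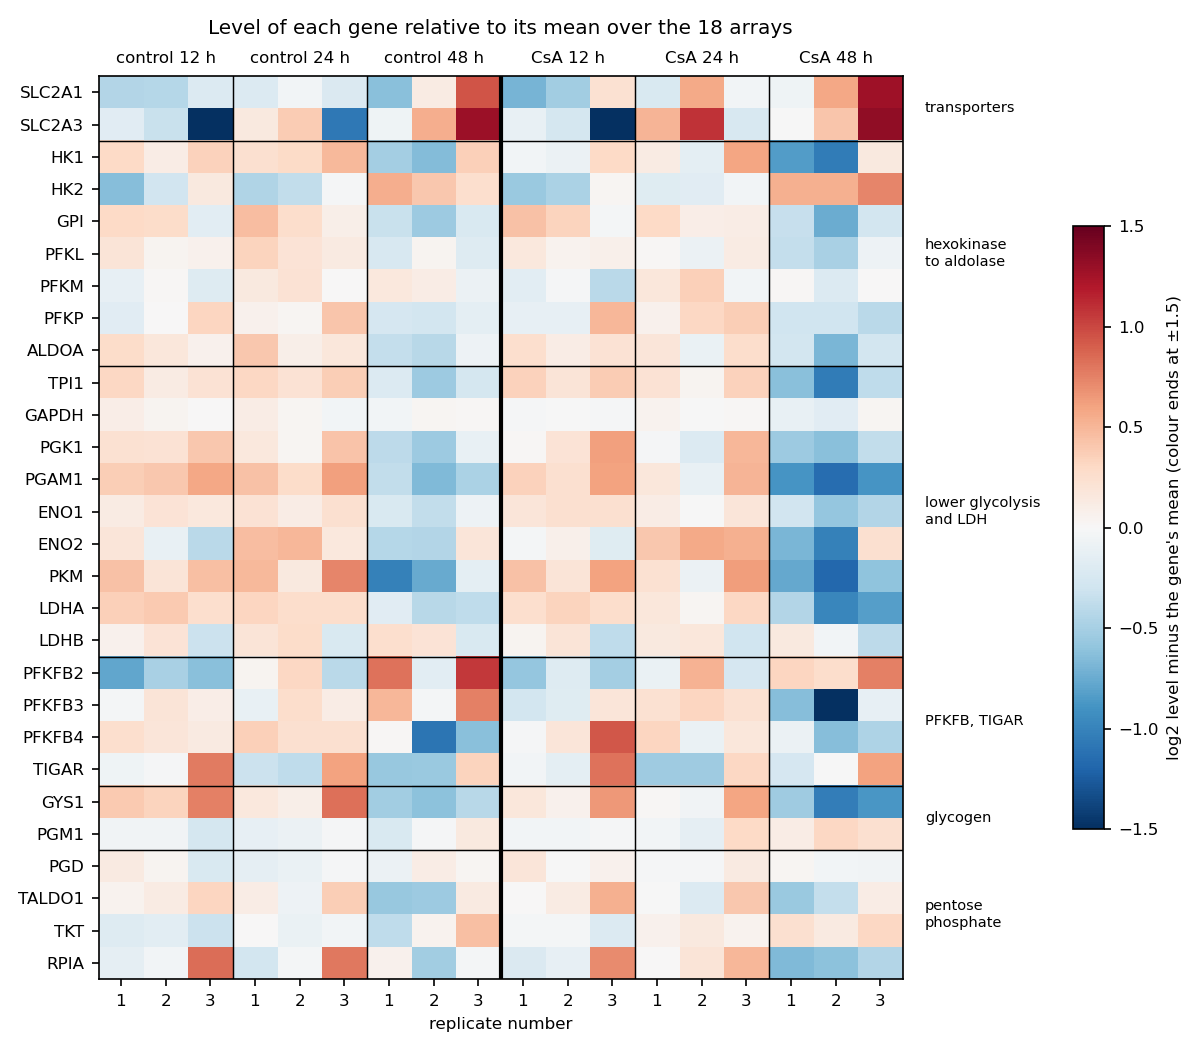
Log2 level of each of the 28 genes (rows, grouped by role) in each of the 18 arrays (columns, by group and replicate number) minus the gene's own mean over the arrays, in blue below and red above. The 48 h columns are blue across most of lower glycolysis in control and darker with CsA, and replicate 3 is red for TIGAR in every group.

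A wider list of 90 further genes of glucose metabolism, of which 57 passed the filter, was read beside these. At 48 h without the block 0 of 57 passed. With it 1 fell (1.75% beside 5.96% of all genes) and 2 rose (3.51% beside 4.8%). PRPS2, which makes the ribose donor of nucleotide synthesis, fell, with a difference of -0.99 (SE 0.21, limma adjusted p 0.0156; without the block 0.0519). PMM1, a mannose phosphate mutase, rose by 0.47 (adjusted p 0.0488, without the block 0.35) and GYG1, the primer of glycogen, by 0.41 (adjusted p 0.0344, without the block 0.419). PRPS2 was also lower in the average of the 3 times with the block, with a difference of -0.46 (adjusted p 0.0475). The median of the 57 differences at 48 h was 0.01, with 29 above 0 and 28 below. In control over time 2 of 57 fell without the block (3.51% beside 7.06% of all genes) and 3 rose (5.26% beside 7.09%). Those that fell were PRPS1 with a change of -1.19 and PRPS2 with -0.90 from 12 to 48 h. The 3 that rose were HKDC1, a hexokinase domain protein, by 1.94, PCK2, the mitochondrial enzyme of gluconeogenesis, by 1.96, and EPAS1, which encodes a hypoxia-inducible factor, by 1.07. Their limma adjusted p were 0.000729, 0.0146, 0.00146, 0.0016 and 0.00416 in this order. With the block 3 fell, adding KHK (5.26% beside 16.7% of all genes), and 11 rose (19.3% beside 16.8%). The calls of this wider list were not repeated with arrays left out.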

How the data were processed

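RNA of HK-2 cells was hybridised to 18 Affymetrix arrays, 3 in each of 6 groups. The deposited values were made by the authors with GCRMA, per the submitters' processing notes, and were taken here as log2. No label states the log base: it was assumed from the method and the range of the values, and all differences and folds rest on it. Its version, and any step that treated arrays in batches, are not given in the sources used here. Of 54675 probe sets, 41091 carried 1 gene symbol, 1801 several and 11721 none, and 62 were array controls. The brightest probe set per gene was kept where its highest group mean was at least 4, leaving 10717 genes. Of the 28 genes described, 18 were read by a probe set whose name ends in _s_at or _x_at, which can share sequence with other transcripts.

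Tests used limma (version 3.58.1, under R 4.3.3), fitting 1 term per group to all 18 arrays, with Benjamini-Hochberg adjustment over all 10717 genes at 0.05. A second fit was blocked on the replicate number. The labels do not say what a number marks; in the data every array was closest to one of its own number (18 of 18), and same-numbered arrays correlated between 0.28 and 0.94 in their deviations from the group means, against at most 0.73 for different numbers. Per-array values were given for genes past the threshold in either fit and for the largest difference of each role group at each time. The genes and lists were chosen with earlier results of these data known. The number of arrays limits the precision. Promoter windows came from RefSeq (GRCh38.p14), and figures were drawn with matplotlib 3.10.9.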

Additional observations from a re-analysis of the deposited data

Results flagged for a closer look

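For several of these genes the difference between CsA and control had 1 sign in all 3 replicate pairs at 1 time and the opposite sign in all 3 at another. PFKFB3 differed by -1.34 between its effects at 48 and 24 h (limma adjusted p 0.867 without and 0.226 with the block), and TIGAR by 0.59 (0.99 and 0.178). Between 48 and 12 h the change in effect was -0.19 for GPI, -0.44 for TPI1 and -0.28 for ENO1, with limma adjusted p of 1 without the block and of 0.743, 0.294 and 0.404 with it. Between 24 and 12 h it was -0.19 for TPI1 and -0.16 for ENO1, with limma adjusted p of 1 in both fits. None passed the test of the difference. Opposite signs in this way at 24 and 48 h were found for 2 of the 28 (7.14%), beside 6.96% of all genes tested. At 12 and 48 h they were found for 3 of the 28 beside 5.84%, and at 12 and 24 h for 2 beside 4.32%.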

How the results depend on the processing

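The counts of genes called at 12 h, at 24 h and for an effect that differed with time were 0 under all alternatives tried for them. At 48 h the count of 0 became 5 with the replicate block, 1 with the block in the 6 arrays of 48 h alone, and between 0 and 2 when 1 array or replicate number was left out. In the average of the 3 times it became 1 with the block. The 10 calls in control over time became 15 with the block, 6 with no level filter, 4 without probe sets that can share sequence (14 genes left to test) and between 0 and 14 with 1 array or number left out. The cause of these shifts was not tested, and some of these fits also had fewer genes or arrays. Fits that combined the block with another choice were added after seeing the data: at 48 h the count was 3 with no level filter, 5 with quantile normalization, 4 with the mean of all probe sets and 1 without shared probe sets. In that last fit PFKFB3, PGAM1 and LDHA had no probe set left to test, and TPI1 at 48 h was 0.08, against -0.35. No other called difference that was named changed its sign. Among those not called, TIGAR and GYS1 at 24 h were 0.10 and 0.06 without control 24 h replicate 3. HK1 at 48 h was 0.0019 without control 48 h replicate 3. SLC2A3 and PKM at 48 h also turned positive without that array in the fit without the block. SLC2A3 at 12 h ranged from -0.44 to 0.56 with 1 array left out. Without shared probe sets TPI1 at 12 h was -0.06 and TKT at 24 h -0.27. The counts in this section are given without the share of all genes called in the same fits. With 3 arrays a group, differences near the spread between arrays are not resolved.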
